A study of Mus musculus with 12 samples.

Results

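The transcriptional response of wild-type fetal liver erythroid cultures to a stroma that displays a NOTCH ligand was examined in 6 of the 12 RNA-seq libraries of the series. These were the libraries of cultures 1, 3 and 4 in the group IkWT/OP9-DL1, compared with those of the same cultures in the group IkWT/OP9. All genes of the table of normalized counts were used, on the scale log2(normalized count + 1). IkWT denotes CD1 mouse embryos with wild-type Ikaros (Ikzf1) taken at stage e14.5, and their fetal liver cells spent 48 h on stroma with 2 U/mL Erythropoietin. OP9 is a bone marrow stromal line that supports hematopoietic cells, and OP9-DL1 is the same line engineered to make Delta-like 1 (DL1, gene Dll1) constitutively. DL1 and any other difference between the 2 stromal lines cannot be told apart. The same contrast in cultures of homozygous Ikaros null embryos (IkNull/OP9-DL1 and IkNull/OP9, 3 libraries each) served as a second set of cultures. The study describes its replicates as biological triplicates, and neither it nor the labels say whether each culture came from a separate embryo. The Y-linked gene Uty, given below, set culture 3 apart from cultures 1 and 4.

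Membership of the erythroid lineage was checked on markers. Ter119, the erythroid surface marker by which the study sorted the cells, is given in the labels too, although they describe recovery of the cells through a filter. The erythroid markers Slc4a1, Epb42, Alas2, Hbb-b1 and Hba-a1 had 19290 to 2592000 normalized counts in IkWT/OP9-DL1 and 18720 to 2916000 in IkWT/OP9 libraries. Hbb-b1, an adult beta-globin gene, held 7.96% to 9.82% of the counts of an IkWT library. Markers of other cells were present too. The neutrophil gene S100a8 had 1440 to 6416 normalized counts on OP9-DL1 and 2074 to 11680 on OP9. Its highest values were in culture 3, where Epb42, the lowest of these erythroid markers, had 19290 on OP9-DL1 and 18720 on OP9. Slc4a1 had 238300 and 243400 in the same culture. Also present in every IkWT library were the macrophage receptor Csf1r (265 to 698 on OP9-DL1, 325 to 759 on OP9), the neutrophil protease Mpo, the hepatocyte gene Alb and the stromal collagen Col1a1, while Cd3e, a T cell marker, was at 0 in all 6. Because these are bulk libraries, fewer cells of a type and less RNA per cell cannot be told apart for any gene below. Whole reads recovered from the values numbered 22 to 31.6 per IkWT library, in units of 1e6 reads (median 28.5).

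Libraries of a culture were alike. Culture accounted for 77.0% of the variance among the 6 IkWT libraries, stroma for 12.6% and the remainder for 10.4%. The first principal component (64.1%) separated both libraries of culture 1 from the other 4. Culture 3 had the Y-linked gene Uty at 611 and 633 normalized counts on OP9-DL1 and OP9, whereas both libraries of cultures 1 and 4 had at most 3.29. The effect of the stroma was hence read within cultures.

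NOTCH receptors are surface proteins that are cut when a Delta-like or Jagged ligand on a neighbouring cell pulls on them. The released intracellular domain enters the nucleus, where it joins the DNA-binding protein RBPJ and a Mastermind coactivator and turns on targets such as Hes1 and Nrarp. In blood formation the pathway is best known for T cell commitment, and OP9-DL1 stroma is a standard means of triggering it.

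Of 13769 genes tested, 62 were higher in IkWT/OP9-DL1 than in IkWT/OP9 (0.45% of the genes tested) and 140 were lower (1.02%). Limma was fitted to all 12 libraries, of both genotypes, with culture as a block. Genes were called where the Benjamini-Hochberg adjusted p was under 0.05 and the log2 fold change was 0.8 or more in either direction. The genes that rose did so by a median log2 fold change of 1.59, and those that fell had a median of -1.07, against 0.01 for all genes (quartiles -0.15 and 0.11). The risers were mostly genes of modest abundance, with a median of 39.8 normalized counts, compared with 77.3 for the fallers and 182 for all genes. Every called gene moved the same way in all 3 cultures, as did 43.9% of all genes tested. The 3 libraries of IkWT/OP9-DL1 lay above all 3 of IkWT/OP9 for 45 of the 62 risers, and below them for 55 of the 140 fallers, where 3.67% and 2.51% of all genes showed such separation. Without culture 1 the counts were 55 higher and 70 lower, without culture 3 they were 38 and 114, and without culture 4 they were 21 and 67. In each of these 3 fits 17 of the risers and 40 of the fallers were called again, while 8 risers and 35 fallers were called in none. With no block for culture, 1 gene (0.00726%) was higher and 0 were lower by limma (79 and 96 at an unadjusted p under 0.05 with the same size).

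**Figure D1:**
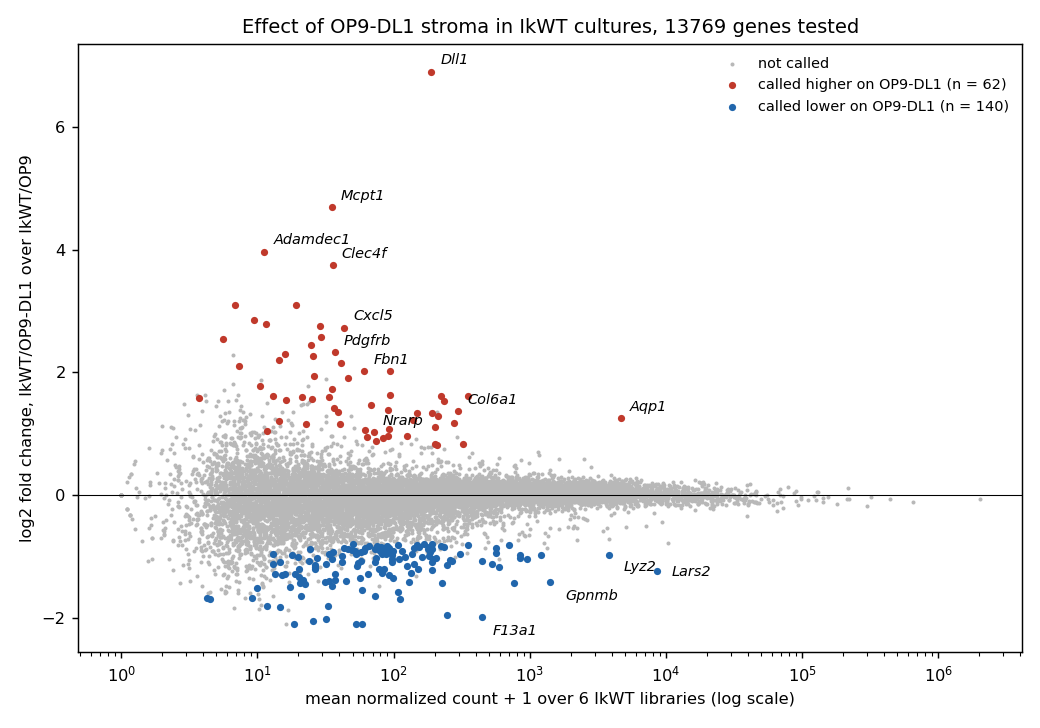
Log2 fold change of IkWT/OP9-DL1 over IkWT/OP9 against the mean normalized count + 1 over 6 IkWT libraries (log scale), a point for each of 13769 genes. The 62 genes called higher and 140 called lower are coloured, Dll1 stands alone at 6.91, and most called genes lie below the median abundance of 182.

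The largest rise was that of the ligand itself. Dll1 (ENSMUSG00000014773, chromosome 17, 15367354 to 15376872 on GRCm38) had 203, 436 and 484 normalized counts in IkWT/OP9-DL1 cultures 1, 3 and 4, against 0.96, 5.58 and 0.95 in IkWT/OP9. Each OP9-DL1 library thus lay far above every OP9 library, with a log2 fold change of 6.91 ± 0.35 (n = 3 IkWT cultures, limma adjusted p = 7.98e-07). Here and below, ± is the SE of the limma fit, whose spread is estimated over all 12 libraries of both genotypes. Counts per gene do not distinguish transcripts of the stromal transgene from those of the gene in the hematopoietic cells.

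Among 8 NOTCH ligands and receptors tested, Dll1 was the only one called by limma, where 0.45% of all genes were higher. The median log2 fold change of the list was -0.26, and edgeR called 2 of the 8 higher and DESeq2 1. Jag1, which encodes another NOTCH ligand, had 30.9, 27.8 and 29.6 normalized counts in IkWT/OP9-DL1 and 20.1, 11.8 and 13.3 in IkWT/OP9, so the groups did not overlap, but at 0.95 ± 0.26 it missed the threshold (adjusted p = 0.0796). The receptor genes Notch1 and Notch2 stood at -0.45 (adjusted p = 0.264) and -0.25 (adjusted p = 0.268). None of the 25 genes of the processing and transcriptional machinery tested was called by limma, edgeR or DESeq2 (1 at an unadjusted p under 0.05), and their median was -0.05. That list includes Rbpj at 0.02, with 1004, 808 and 732 normalized counts on OP9-DL1 against 1002, 820 and 690 on OP9, and Maml3, a Mastermind coactivator, at -0.38, whose adjusted p of 0.0494 passed while its size did not.

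Targets of NOTCH responded unevenly. Nrarp (chromosome 2, 25180758 to 25183339), a target that feeds back on the NOTCH complex, had 70.1, 117 and 97.9 normalized counts in IkWT/OP9-DL1 and 43.1, 36.5 and 58.1 in IkWT/OP9, without overlap. It rose by 1.03 ± 0.24 (adjusted p = 0.0403), the only 1 of 6 targets tested to pass by limma. Its adjusted p was 0.102, 0.328 and 0.146 without cultures 1, 3 and 4, so that each omission removed the call. Hes1 (chromosome 16, 30064384 to 30067796), a repressor of the basic helix-loop-helix family, had 19.6, 55.0 and 29.6 normalized counts on OP9-DL1 against 13.4, 7.43 and 11.4 on OP9. All 3 OP9-DL1 libraries were above the OP9 libraries, and culture 3 had the widest gap. The log2 fold change of Hes1 was 1.52 ± 0.40, with an adjusted p of 0.0649. Little separated the groups for Myc (0.07), Hey2 (0.11), the cyclin gene Ccnd1 (0.02) or the cell cycle inhibitor gene Cdkn1a (-0.05), although Cdkn1a was abundant at 7307 to 11650 normalized counts on OP9-DL1 and 7464 to 12420 on OP9. The T cell targets Ptcra and Dtx1 and the Hes family genes Hes5 and Heyl were at 0 in all 6 libraries. The median of the 6 targets was 0.09, and edgeR called 2 of them higher and DESeq2 1. By limma 0.45% of all genes were higher.

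**Figure D2:**
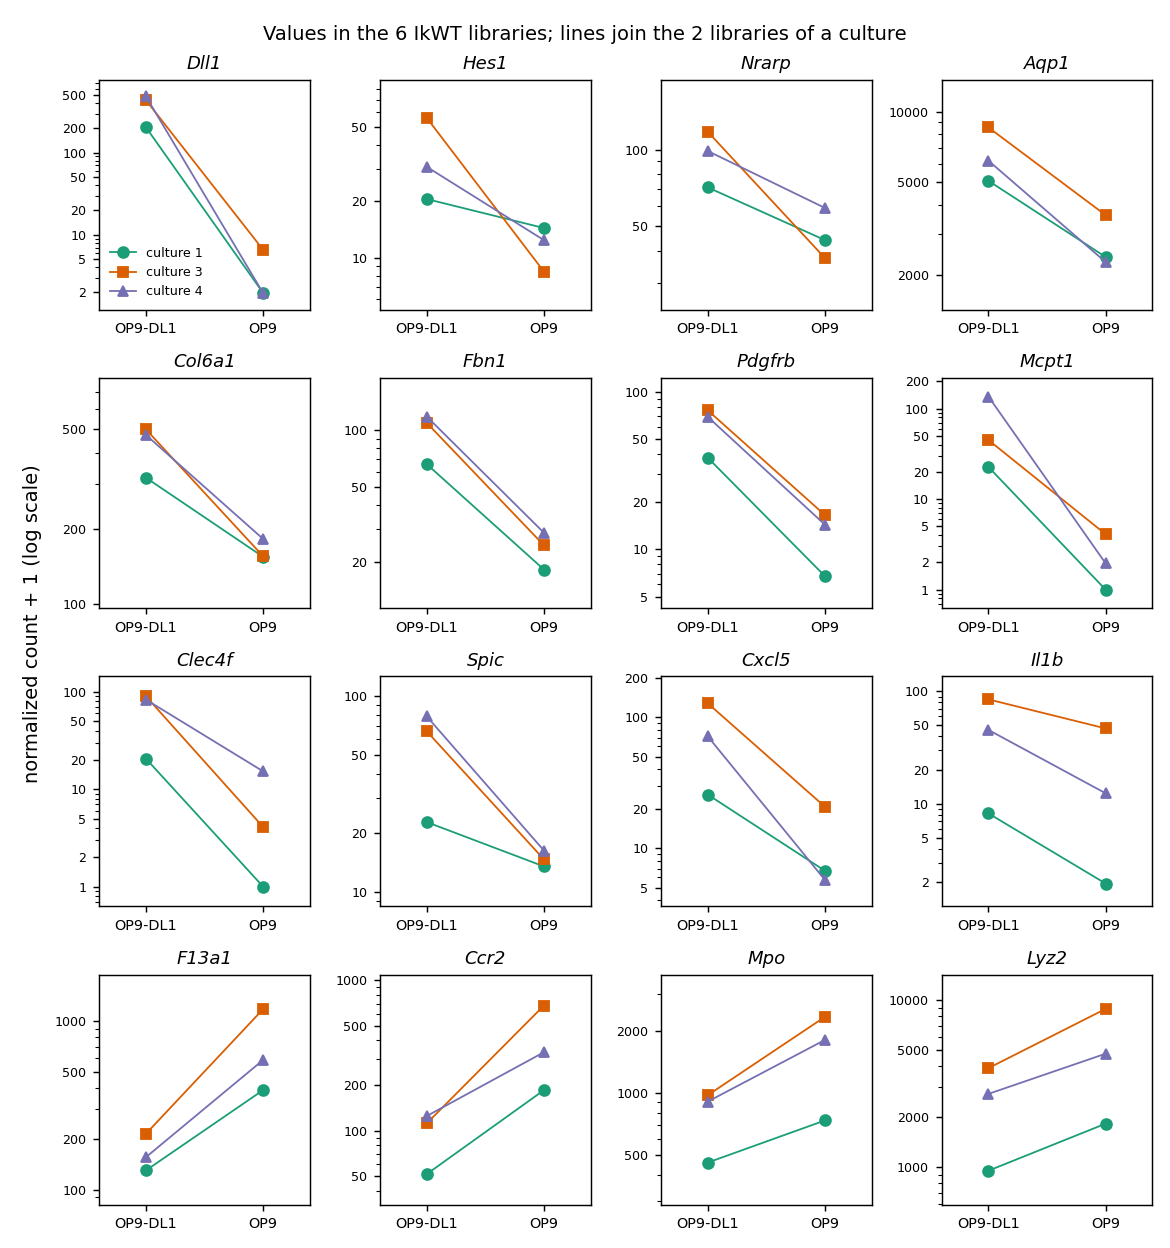
Normalized count + 1 (log scale) of 16 genes in the 6 IkWT libraries, with a line joining the OP9-DL1 and the OP9 library of each culture. The lines of Dll1 to Il1b fall from OP9-DL1 to OP9 and those of F13a1, Ccr2, Mpo and Lyz2 climb, while culture 1 often sits apart in level.

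Extracellular matrix and mesenchymal genes formed the largest group of risers. Of 28 tested genes on a list of stromal and matrix genes, 11 were higher and 0 were lower, with a median log2 fold change of 0.63. Of all genes tested, 0.45% were higher and 1.02% lower. Fbn1, which encodes the microfibril protein fibrillin-1, had 65.0, 108 and 117 normalized counts in IkWT/OP9-DL1 and 17.3, 23.5 and 27.6 in IkWT/OP9, a log2 fold change of 2.02 ± 0.18 (adjusted p = 0.000206). Col6a1, a chain of collagen VI, had 318, 495 and 471 normalized counts on OP9-DL1 against 153, 154 and 181 on OP9, and rose by 1.37 ± 0.13. For both genes every OP9-DL1 library exceeded every OP9 library, and both calls held without any of the 3 cultures. Col6a2, another chain of collagen VI, rose by 1.33 ± 0.17 and the fibrillar collagens Col3a1, Col5a2, Col1a1 and Col1a2 by 2.03, 1.38, 1.34 and 0.83. Pdgfrb, a receptor of pericytes and fibroblasts, had 37.1, 75.2 and 68.3 normalized counts on OP9-DL1 and 5.75, 15.5 and 13.3 on OP9, and rose by 2.33 ± 0.38. Outside the list, the collagen genes Col5a3 (3.10 ± 0.47), Col15a1 (2.76 ± 0.46) and Col18a1 (1.23 ± 0.29), the pericyte and fibroblast gene Cd248 (2.30 ± 0.35) and the caveola gene Cav1 (1.48 ± 0.18) also rose. Of the genes named here, Col3a1, Col5a2, Col1a1, Col1a2, Pdgfrb, Col15a1, Col18a1 and Cd248 were not called without culture 4 (adjusted p of 0.0607 to 0.275), and Col5a2, Col1a1 and Col18a1 also not without culture 3 (0.0632 to 0.276).

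The matrix genes did not move as a block. Fn1 (fibronectin) stood at -0.55 with an adjusted p of 0.0112, under the size required. Sparc was at 0.39, Pdgfra at -0.01 and the stromal chemokine gene Cxcl12 at -0.74, none of them called. Summed over the list, normalized counts were 7425, 6131 and 6541 in IkWT/OP9-DL1 and 8192, 4129 and 5378 in IkWT/OP9, so that culture 1 had less on OP9-DL1 while cultures 3 and 4 had more. Without culture 4 the list had 3 genes called higher, without culture 3 it had 6, and without culture 1 it again had 11. Fibrillar collagens are typical products of fibroblasts and stromal cells. Thy1, another stromal marker, had 0, 1.16 and 2.47 normalized counts on OP9-DL1 and 1.92, 4.96 and 10.5 on OP9. It was lower on OP9-DL1 in each culture, but at low counts and without a call (limma adjusted p = 0.0804). The part of stromal cells in these results was not tested.

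Genes of macrophages moved in both directions. Of 22 tested macrophage genes, 3 were higher and 4 lower, where 0.45% and 1.02% of all genes were, with a median log2 fold change of -0.52. The risers were Timd4 (2.86 ± 0.62), a receptor for phosphatidylserine on resident macrophages, Spic (1.73 ± 0.37), a transcription factor of iron-recycling macrophages, and Aif1 (1.17 ± 0.20), which encodes an actin-binding protein. Clec4f, a lectin gene of Kupffer cells, had 19.6, 89.1 and 82.3 normalized counts in IkWT/OP9-DL1 and 0, 3.10 and 14.3 in IkWT/OP9, without overlap. It rose by 3.76 ± 0.37 (adjusted p = 0.00029), with or without any culture. Adamdec1, a metalloprotease gene of macrophages, had 7.22, 23.1 and 30.4 normalized counts on OP9-DL1 against 0, 0.62 and 0 on OP9, where the 0.62 in culture 3 is a solitary read. Its log2 fold change of 3.97 depends on the 1 added to each value, as do those of other genes near 0 on OP9. Itgax, the integrin chain CD11c, rose by 2.27 ± 0.33, and Vcam1, an adhesion molecule gene that island macrophages use to hold erythroblasts, by 0.95 ± 0.23. Timd4, Spic and Vcam1 lost their calls without culture 3 (adjusted p of 0.117, 0.174 and 0.328) and without culture 4 (0.276, 0.261 and 0.182), and Aif1 without culture 4 (0.0808).

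The falling side held genes of monocytes and of phagocytes in general, a grouping made after the values were seen. Lyz2, the lysozyme gene of myeloid cells (chromosome 10, 117277331 to 117282321), had 951, 3912 and 2742 normalized counts in IkWT/OP9-DL1 and 1819, 8843 and 4770 in IkWT/OP9. The ranges overlapped because culture 1 was low on both stromas, but each culture had less on OP9-DL1, and the log2 fold change was -0.97 ± 0.11 (adjusted p = 0.000499). Trem2, a lipid receptor of macrophages, fell by 1.28 ± 0.16. Siglec1 and Fcgr1, a sialic acid receptor and a high-affinity Fc receptor, had a log2 fold change of -0.88 each. Siglec1 was called in none of the fits with a culture left out (adjusted p of 0.0567 to 0.176), and Fcgr1 was not called without culture 1 or 4 (0.13 and 0.107). Without culture 1 the macrophage list had 3 genes higher and 2 lower, without culture 3 it had 1 and 6, and without culture 4 it had 0 and 3. Summed over the list, normalized counts were 18630, 14350 and 13410 on OP9-DL1 and 23570, 19740 and 17200 on OP9. The complement genes C1qa, C1qb and C1qc, made by tissue macrophages, stood at 0.73, 0.50 and 0.68 with none called. Adgre1 and Cd68, other macrophage markers, stood at -0.54 and -0.71, with limma adjusted p of 0.038 and 0.0276 but below the size required. At an adjusted p under 0.05 of any size, 3 genes of the list were higher and 7 lower.

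F13a1 had the smallest p of all genes that fell. This gene of the coagulation factor XIII A subunit, made by monocytes, macrophages and megakaryocytes (chromosome 13, 36867178 to 37050244), had 129, 213 and 155 normalized counts in IkWT/OP9-DL1 and 388, 1176 and 586 in IkWT/OP9. The groups did not overlap, and the log2 fold change was -1.99 ± 0.14 (adjusted p = 3.1e-05). Ccr2, the chemokine receptor by which inflammatory monocytes leave the marrow, had 50.5, 111 and 124 normalized counts on OP9-DL1 against 185, 678 and 331 on OP9, at -1.95 ± 0.23 (adjusted p = 0.000571). Again each OP9-DL1 library was below every OP9 library. Ly6c2, a monocyte surface antigen gene, Vcan, a proteoglycan gene of monocytes and stroma, Gpnmb, a glycoprotein gene of phagocytes, and Lgals3 (galectin-3) fell by 1.26 ± 0.18, 1.12 ± 0.10, 1.41 ± 0.15 and 0.97 ± 0.11. The acute-phase gene Saa3 (-2.06 ± 0.30), the arginase gene Arg1 (-2.10 ± 0.22) and the osteoclast proton pump gene Atp6v0d2 (-1.82 ± 0.17) had some of the largest falls. All of the genes in this paragraph were called again without each culture in turn.

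Neutrophil genes fell together in sign. All 17 tested had a log2 fold change below 0, where 48.7% of all genes did, and their median was -0.61. Of these 17, 5 were called lower and 0 higher, where 1.02% and 0.45% of all genes were. Mpo (myeloperoxidase, chromosome 11, 87793581 to 87804413) had 459, 973 and 906 normalized counts in IkWT/OP9-DL1 and 734, 2329 and 1801 in IkWT/OP9, at -0.98 ± 0.11 (adjusted p = 0.000499). The highest OP9-DL1 values, in cultures 3 and 4, overlapped with the OP9 value of culture 1. Prtn3 (proteinase 3), Ctsg (cathepsin G), Elane (neutrophil elastase) and the collagenase gene Mmp8 followed at -1.07 ± 0.12, -1.10 ± 0.18, -0.83 ± 0.16 and -0.95 ± 0.16. Lcn2, Camp and S100a9, other granule and cytosol proteins of neutrophils, stood at -0.61, -0.66 and -0.51 and passed on adjusted p (0.0147, 0.0168 and 0.048) but not on size. Ltf (-0.59, adjusted p = 0.0908), Ngp (-0.53, adjusted p = 0.0861) and S100a8 (-0.53, adjusted p = 0.0581) passed neither. Without culture 4 Ctsg, Mmp8 and Elane were not called (adjusted p of 0.092, 0.0709 and 0.179), nor was Elane without culture 3 (0.0709). Without culture 1 the list had 5 genes lower, without culture 3 it had 4 and without culture 4 it had 2. The summed list stood at 7140, 32090 and 18930 normalized counts on OP9-DL1 and 10670, 56540 and 24360 on OP9. Sfpi1, which encodes PU.1, a master factor of myeloid cells, stood at -0.47 ± 0.10 with an adjusted p of 0.0303, below the size required.

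Chemokine genes split as well. Of 17 tested, 3 were higher and 5 lower, with a median of -0.70. Cxcl5, a neutrophil attractant, had 24.8, 127 and 70.8 normalized counts in IkWT/OP9-DL1 and 5.75, 19.8 and 4.76 in IkWT/OP9, so that every OP9-DL1 library was higher, and it rose by 2.73 ± 0.34 (adjusted p = 0.000898). Cxcl1, another neutrophil attractant, and Ccl7, a monocyte attractant, rose by 1.42 ± 0.24 and 0.88 ± 0.22. Ccl12, Ccl3, Ccl6 and Ccl9, attractants of monocytes, macrophages and other leukocytes, fell by 1.68 ± 0.38, 1.4 ± 0.23, 1.21 ± 0.17 and 1.07 ± 0.12, beside the receptor Ccr2. The risers and fallers among the Ccl genes were neighbours. Of 8 tested Ccl genes on chromosome 11 between 82035571 and 83664683, Ccl7 was higher and the 4 named fallers were lower. The same stretch holds 9 schlafen genes, proteins of growth arrest and antiviral defence, of which Slfn5, Slfn10-ps and Slfn4 were lower and none higher. These stretches were picked after the values were known. Over all genes tested, 0.45% were called higher and 1.02% lower. Of 9 cytokine genes, 1 was called, Il1b (interleukin-1 beta), which had 7.22, 83.9 and 44.4 normalized counts on OP9-DL1 and 0.96, 45.8 and 11.4 on OP9 and rose by 1.6 ± 0.30. Il6 was at 1.04 with an adjusted p of 0.237. Without culture 1 the chemokine list had 2 genes higher and 3 lower, without culture 3 it had 1 and 5, and without culture 4 it had 1 and 4. Il1b was not called without culture 1 (adjusted p = 0.0951) or without culture 4 (adjusted p = 0.13). Ccl7 and Slfn4 were not called in any fit with a culture left out, Ccl12 and Slfn10-ps were not called without culture 1 or 4, Cxcl1 not without 3 or 4, Ccl3 not without 1 and Slfn5 not without 4.

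Proteases of mast cells gave the second largest rise. Mcpt1, a chymase of mucosal mast cells (chromosome 14, 56017971 to 56020384), had 21.7, 44.0 and 135 normalized counts in IkWT/OP9-DL1 and 0, 3.10 and 0.95 in IkWT/OP9, a log2 fold change of 4.69 ± 0.43 (adjusted p = 0.000206). Its neighbours Mcpt2 and Mcpt4 rose by 2.79 ± 0.41 and 3.09 ± 0.65. These are close paralogs, so reads could be assigned to the wrong member, and Mcpt4 had no more than 23.9 normalized counts in any IkWT library. Other genes of the same protease cluster (7 tested between 55941451 and 56262260, a set picked after the values were known) did not follow, as Ctsg was lower and Mcpt8 and Cma1 stood at -0.92 and -1.62 without a call. Gzmb, a granzyme gene at the end of the cluster, was at 1.77 (adjusted p = 0.0921). The list of mast cell and basophil genes, which holds neither Mcpt1 nor Mcpt2, had 13 tested members. Mcpt4 was higher and the basophil protease gene Prss34 lower (-1.59 ± 0.30), where 0.45% and 1.02% of all genes were. The list median was -0.62, and the mast cell carboxypeptidase gene Cpa3 was at -0.90 (limma adjusted p = 0.0522). Mcpt4 was not called without culture 1 (adjusted p = 0.0978) or 4 (adjusted p = 0.24), nor was Prss34 (adjusted p = 0.0991 and 0.0832).

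**Figure D3:**
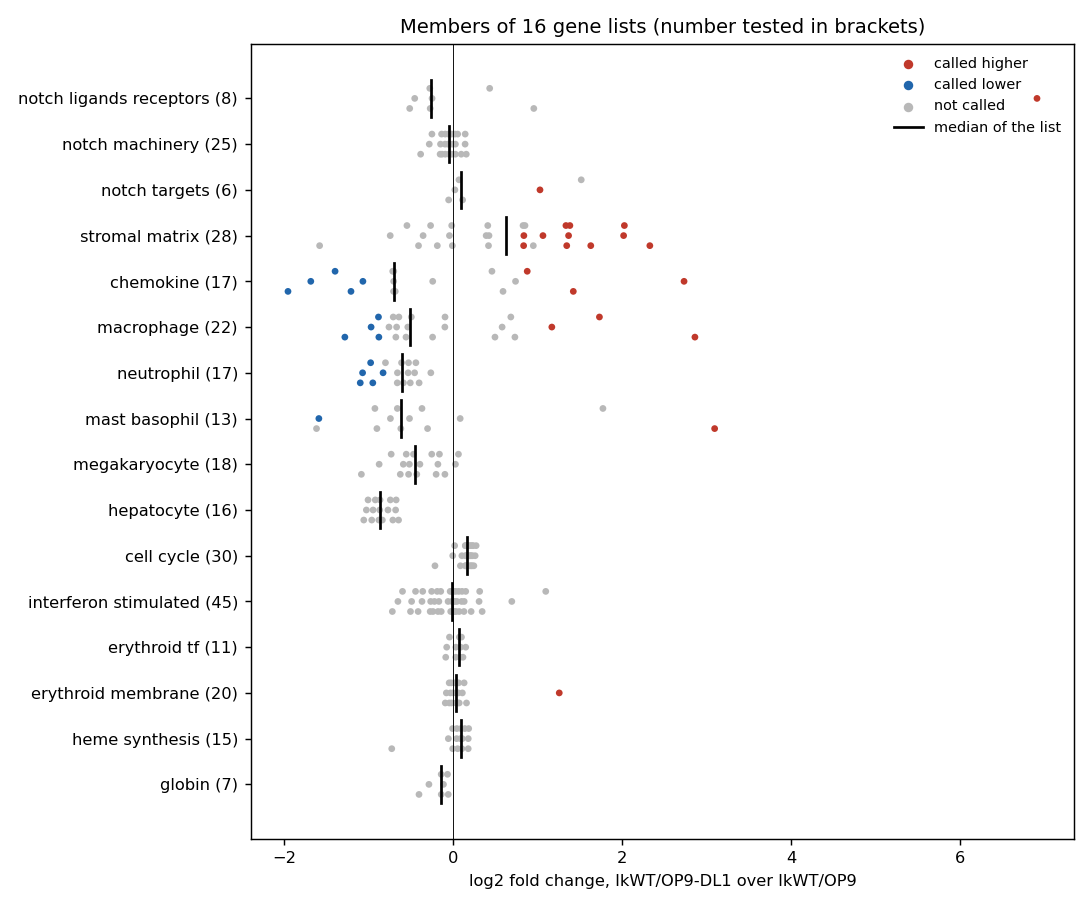
Log2 fold change of IkWT/OP9-DL1 over IkWT/OP9 for the tested members of 16 gene lists, a point per gene, with a bar at the median of each list. Stromal matrix genes spread to the right with a median of 0.63, neutrophil and hepatocyte genes lie to the left of 0, and erythroid lists lie around 0 apart from Aqp1 at 1.26 and Alas1 at -0.73.

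Erythroid lists had medians near 0. Of 20 erythroid membrane and cytoskeleton genes 1 was called, as higher (5%), where 0.45% of all genes were. None was called among 11 erythroid transcription factors, 15 heme synthesis genes, 14 iron genes or 7 globin genes. The medians of these lists, in that order, were 0.03, 0.07, 0.09, 0.07 and -0.14. The called gene was Aqp1, the water channel of the red cell membrane (chromosome 6, 55336432 to 55348555). It had 5063, 8563 and 6173 normalized counts in IkWT/OP9-DL1 and 2392, 3613 and 2275 in IkWT/OP9, without overlap, and rose by 1.26 ± 0.17 (adjusted p = 0.00128). Aqp1 was the only riser whose mean reached 1000 normalized counts and was called again without each culture. Alas1, the enzyme of the first step of heme synthesis in most tissues, had 137, 219 and 226 normalized counts on OP9-DL1 and 207, 386 and 387 on OP9. It was lower on OP9-DL1 in each culture, at -0.73 ± 0.10 with an adjusted p of 0.00192, below the size required. Without adjustment, 0 transcription factor, 4 heme, 3 iron and 2 globin genes had p under 0.05, and neither edgeR nor DESeq2 called any of these. Gata1 and Klf1, the central activators of red cell genes, stood at 0.07 and 0.10, and Epor is not among the called genes. Aqp1 is also made by endothelial cells, and the source of its rise was not tested. Of the endothelial markers, Kdr and Pecam1 stood at 0.01 and 0.19, and Cdh5, given below, at 1.78. Of 12 endothelial genes 1 was higher and 1 lower, where 0.45% and 1.02% of all genes were, with a median of 0.10. The endothelial sums had log2 ratios of -0.35, 0.02 and -0.91. Stab1, a scavenger receptor of sinusoidal endothelium and macrophages, had 66.0, 56.7 and 35.4 normalized counts on OP9-DL1 and 183, 130 and 193 on OP9, without overlap, and fell by 1.69 ± 0.22 (adjusted p = 0.00137), with or without any culture. Cdh5, an endothelial cadherin, rose by 1.78 ± 0.38 at no more than 23.7 normalized counts, and lost its call without culture 1 (adjusted p = 0.109) or 3 (adjusted p = 0.0846).

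Genes of proliferation leaned upward by small amounts. Of 30 cell cycle genes tested, 28 had a log2 fold change above 0, where 51.3% of all genes did, with a median of 0.17. None was called by limma, edgeR or DESeq2, and 20 had an unadjusted p under 0.05. Pcna, the DNA polymerase clamp, had 6541, 5090 and 4937 normalized counts in IkWT/OP9-DL1 and 5338, 4316 and 4146 in IkWT/OP9, a log2 fold change of 0.26 with an adjusted p of 0.045. Each culture had more Pcna on OP9-DL1, while the groups overlapped. No gene was called among 19 p53 targets, 45 interferon-stimulated genes, 18 genes of MHC class I presentation, 12 heat shock genes, 27 genes of glycolysis and hypoxia or 21 of cholesterol synthesis, and their medians lay between -0.14 and 0.06. Without adjustment, p was under 0.05 for 3, 9, 3, 3, 6 and 2 members of these lists in that order, and edgeR called 1 interferon-stimulated gene higher. Slc2a3, a glucose transporter gene of the glycolysis list, stood at -0.29 with an adjusted p of 0.0297. The interferon list differed between cultures, with median log2 differences of -0.45, 0.45 and -0.16 in cultures 1, 3 and 4. Of 28 immediate-early genes, Nr4a1, an orphan nuclear receptor gene, was higher (1.6 ± 0.39, limma adjusted p = 0.0474), where 0.45% of all genes were. Even so, 21 of the 28 were below 0 and the median was -0.17. Nr4a1 was not called without culture 1 (adjusted p = 0.294) or 4 (adjusted p = 0.26), nor by edgeR or DESeq2. Fosb, at -0.58, passed on limma adjusted p (0.0371) but not on size.

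Summed markers of other cells differed between the stromas, and their part in the results above was not tested. Hepatocyte genes (16 tested, all below 0, median -0.87) summed to 5007, 7670 and 3988 normalized counts in IkWT/OP9-DL1 and 11800, 7181 and 9210 in IkWT/OP9. Cultures 1 and 4 had log2 ratios of -1.24 and -1.21, and culture 3 had 0.10. None of the 16 was called by limma on all libraries, although 12 had an unadjusted p under 0.05. By edgeR 7 were called lower, by DESeq2 2, by limma on the 6 IkWT libraries alone 3, and without culture 3 also 3, with a median of -1.23. Of 18 megakaryocyte genes tested, none was called by limma, with 7 lower at an unadjusted p under 0.05. Itgb3 (-0.55, adjusted p = 0.0154) and Thbs1 (-0.47, adjusted p = 0.0115) passed on limma adjusted p but not on size. By edgeR 1 was called lower and by DESeq2 1. The megakaryocyte list had a median of -0.45, and its sums were lower on OP9-DL1 in all 3 cultures, at log2 ratios of -0.32, -0.25 and -0.24. Of 5 adipocyte genes, Lpl (lipoprotein lipase), which macrophages also make, fell by 1.03 ± 0.11, and Adipoq had at most 0.82 normalized counts on OP9-DL1 and 0.95 on OP9. Of 10 lymphoid genes, Il7r, the interleukin-7 receptor of lymphoid cells and fetal macrophages, was lower (-1.45 ± 0.22), where 1.02% of all genes were. The 8 reference genes had a median of 0.03 with none called.

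**Figure D4:**
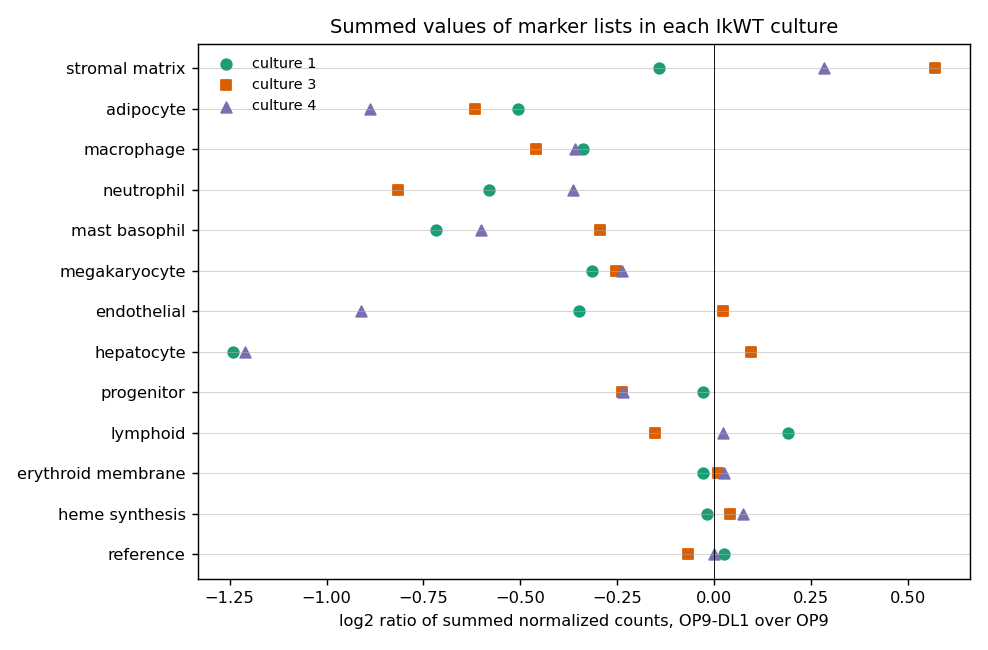
Log2 ratio of summed normalized counts, OP9-DL1 over OP9, for 13 marker lists in IkWT cultures 1, 3 and 4. Macrophage, neutrophil, mast cell, adipocyte and megakaryocyte sums lie below 0 in all 3 cultures, hepatocyte sums lie at -1.24, 0.10 and -1.21, and erythroid and reference sums lie near 0.

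Other called genes belonged to none of the lists. Tmem184a, a transmembrane protein gene, had 89.7, 832 and 648 normalized counts in IkWT/OP9-DL1 and 25.9, 287 and 220 in IkWT/OP9, and rose by 1.61 ± 0.17 (adjusted p = 0.000418). It rose in each culture, though culture 1 was low on both stromas and the groups overlapped. Paqr6, a progestin receptor family gene, had 320, 467 and 204 normalized counts on OP9-DL1 and 155, 124 and 54.3 on OP9, without overlap, at 1.61 ± 0.19. Lrig1, a brake on growth factor receptors, rose by 1.29 ± 0.17. Among abundant genes, Lars2, which encodes the mitochondrial leucyl-tRNA synthetase (chromosome 9, 123366927 to 123462666), had 7128, 4012 and 3696 normalized counts on OP9-DL1 and 20081, 9238 and 7430 on OP9. Each OP9-DL1 library was below every OP9 library, and the log2 fold change was -1.23 ± 0.14 (adjusted p = 0.000495). In IkNull cultures Lars2 had 6503, 10528 and 3345 normalized counts on OP9-DL1 and 6992, 22240 and 4408 on OP9. Its log2 fold change there was -0.53 ± 0.14 (limma adjusted p = 0.0842). Counts per gene do not show which part of Lars2 the reads cover, and this was not tested. The non-coding genes Mir5105 (-1.44 ± 0.16) and Gm15662 (-1.17 ± 0.13) also fell. Rn7sk, a small nuclear RNA that restrains transcription elongation, was at -0.87 ± 0.17, a call lost without culture 1 (adjusted p = 0.192) or 4 (adjusted p = 0.0608). Of the called genes, all 62 risers and 135 of the 140 fallers were annotated as protein coding.

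Promoters of called genes were searched for the core letters bound by RBPJ, GTGGGAA, and for GAGGAAGT, a core of PU.1 sites, on both strands. Both motifs were chosen with the results known, and the windows run from 250 bases before to 50 after the RefSeq start of each gene on GRCm38.p6. Of the risers, 41 had a window, and 2 of these held GTGGGAA (4.88%), against 8 of 98 among the fallers (8.16%) and 7.21% of all tested genes with a window. GAGGAAGT stood in 2 of 41 risers (4.88%) and 16 of 98 fallers (16.3%), against 3.9% of tested genes. These shares are descriptions, a match is no evidence of binding, and no window was at hand for Hes1. The parts of the windows upstream of the start that hold the match follow, 5′ to 3′ on the strand of the gene with the match in capitals, for both risers with GTGGGAA and for 3 of the granule genes with GAGGAAGT, since those genes share a direction. The GENCODE annotation, which gives the gene positions here, begins Fbn1 and Mpo further upstream than RefSeq. The stretch of Fbn1 and part of that of Mpo thus lie inside the GENCODE genes. Fbn1 is shown from chr2:125506439-125506558 (minus strand), Tmem184a from chr5:139813374-139813493 (minus), Mpo from chr11:87793534-87793653 (plus), Prtn3 from chr10:79879547-79879666 (plus) and Elane from chr10:79886192-79886311 (plus).
Fbn1: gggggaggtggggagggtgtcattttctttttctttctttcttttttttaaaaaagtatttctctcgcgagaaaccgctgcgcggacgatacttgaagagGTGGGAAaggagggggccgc
Tmem184a: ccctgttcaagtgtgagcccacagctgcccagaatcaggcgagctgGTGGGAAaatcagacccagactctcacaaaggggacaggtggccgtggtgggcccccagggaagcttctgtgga
Mpo: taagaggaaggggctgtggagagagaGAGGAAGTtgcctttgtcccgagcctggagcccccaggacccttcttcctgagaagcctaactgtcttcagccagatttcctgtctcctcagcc
Prtn3: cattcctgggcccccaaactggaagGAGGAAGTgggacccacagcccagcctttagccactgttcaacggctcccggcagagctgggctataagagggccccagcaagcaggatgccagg
Elane: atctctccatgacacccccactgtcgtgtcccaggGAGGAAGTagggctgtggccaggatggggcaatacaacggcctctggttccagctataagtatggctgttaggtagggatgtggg

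In IkNull cultures the same contrast gave 70 genes higher (0.508%) and 31 lower (0.225%). Of the 62 IkWT risers, 25 were also called higher in IkNull cultures (40.3% of the IkWT list and 35.7% of the IkNull list), and of the 140 fallers 18 were called lower (12.9% and 58.1%). The effect in IkNull cultures was above 0 for 57 of the 62 and below 0 for 130 of the 140, where 48.5% and 51.5% of all genes were. Its median was 1.27 over the risers and -0.50 over the fallers. The smaller effect in IkNull cultures, for 48 of 62 and 133 of 140 genes, is in part fixed by the choice of genes on the IkWT values. The difference itself was tested as the IkWT minus IkNull effect of stroma with limma, which called 0 genes. Without adjustment (p under 0.05, size 0.8), 71 effects were higher in IkWT and 271 lower. The interaction count was 2 without IkWT culture 1, 2 without culture 3 and 0 without culture 4.

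Several genes came near the threshold of that test. For F13a1 the IkNull values were 562, 1523 and 481 normalized counts on OP9-DL1 and 1121, 2133 and 660 on OP9, a fall of -0.64 ± 0.14, and the difference of IkWT minus IkNull was -1.34 ± 0.20 (interaction adjusted p = 0.0519). Vcan differed by -0.96 ± 0.14 (interaction adjusted p = 0.0519), Cd93, a receptor gene of myeloid and endothelial cells, by -1.26 ± 0.22 (0.0874) and Rph3al, a gene of regulated exocytosis, by 1.47 ± 0.24 (0.0729). Rph3al had 439, 363 and 341 normalized counts in IkWT/OP9-DL1 and 243, 160 and 120 in IkWT/OP9, but 149, 145 and 88.6 in IkNull/OP9-DL1 and 122, 216 and 135 in IkNull/OP9. It was thus higher on OP9-DL1 in each IkWT culture and lower in 2 of 3 IkNull cultures, and its call in IkWT was lost without culture 4 (adjusted p = 0.0608). Of the called genes, 3 moved in opposite directions in all 6 cultures (1.49%, against 3.68% of all genes), namely Myct1, Slc6a4 and Pyhin1, with interaction adjusted p of 0.229, 0.289 and 0.173. Myct1 was not called in IkWT without culture 1, 3 or 4 (limma adjusted p = 0.1495, 0.0793 and 0.1018). With a culture left out, Slc6a4 was called only without culture 3 and Pyhin1 only without culture 1. DESeq2 called none of these genes, and edgeR called only Slc6a4 and Pyhin1. The matrix list had 11 genes higher in IkWT and 10 in IkNull cultures, with medians of 0.63 and 0.79. Its sum was higher on OP9-DL1 in IkWT cultures 3 and 4 and lower in culture 1, but higher in all 3 IkNull cultures (19840, 14690 and 15160 normalized counts on OP9-DL1, 15110, 9502 and 11140 on OP9). The difference between genotypes was not tested for the list. Adamdec1 had 117, 232 and 176 normalized counts in IkNull/OP9-DL1 and was listed at 0 in all 3 IkNull/OP9 libraries.

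**Figure D5:**
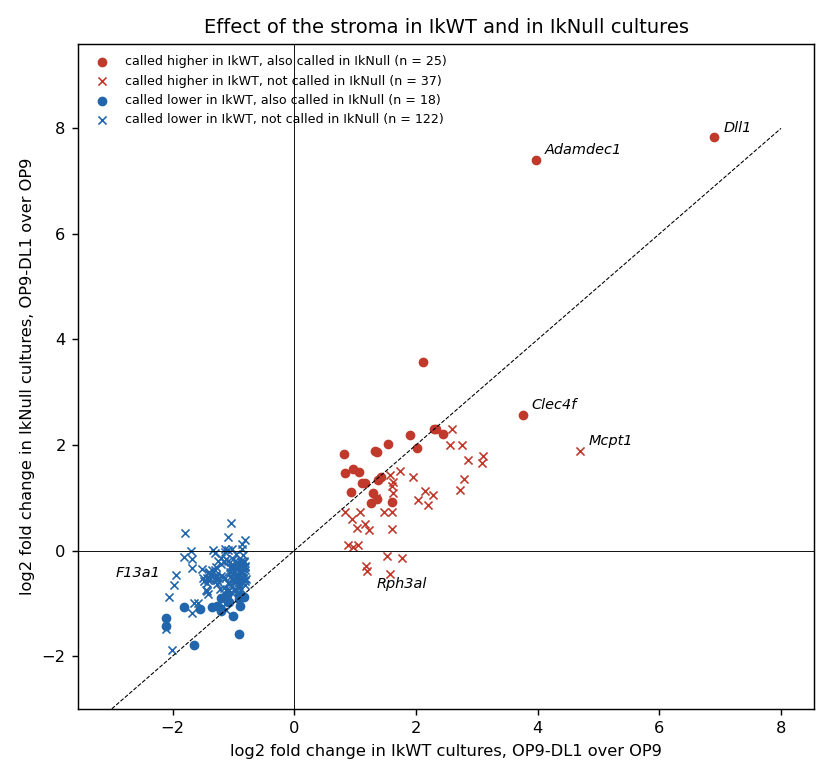
Log2 fold change of OP9-DL1 over OP9 in IkNull cultures (vertical) against IkWT cultures (horizontal) for the 62 genes called higher and 140 called lower in IkWT, with the dashed line marking equal effects. Dots are the 25 and 18 genes also called in IkNull cultures and crosses the rest, and most fallers lie above the line, closer to 0 in IkNull cultures.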

How the data were processed

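Ter119+ cells of 12 co-cultures were sequenced on a HiSeq2000 by the authors, who aligned untrimmed reads to GRCm38/mm10 with TopHat, counted them per gene with htseq-count and divided the counts by a size factor per library. Versions in the submitters' processing notes are TopHat2 2.0.9, CASAVA 1.8, DESeq2 1.0.19 and HTSeq 0.5.3. For strand and annotation, nothing is given in the sources used. The deposited signal values are these normalized counts. The 4 other deposited tables hold the authors' group means, fold changes and p-values and were not used.

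Genes with a mean of at least 5 over the 12 libraries (13769 of 38250) were fitted with limma 3.58.1 in R 4.3.3 (eBayes with a trend) after log2(normalized count + 1), with the 6 cultures as a fixed block and a stroma effect per genotype (residual df 4, prior df 8.71). The numbers were taken as pairs because the columns share them and, over 3 pairs, libraries of the same number deviated together in IkWT (correlations across genes of 0.826, 0.762 and 0.583, against -0.702 to 0.193 for different numbers). A sign-flip test of 3 pairs cannot go below p = 0.25, nor an exact permutation test of 3 against 3 libraries below 0.1. The p-values hence come from the fit across genes. They rest on how the OP9-DL1 minus OP9 difference varied between cultures of a genotype, over all 6 cultures of both genotypes. In the IkWT libraries 100% of values were whole multiples of a step per library (tolerance 0.01), and edgeR 4.0.16 (quasi-likelihood) and DESeq2 1.42.0 were run on the recovered reads as alternatives, beside other blocks, pseudocounts, filters, scalings, priors and omitted cultures. The scripts were tested on simulated data. Positions come from GENCODE vM21, which held 36429 of the identifiers, and 294 genes share a symbol.

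The comparison and the 33 gene lists were chosen with earlier results of these data known. Named genes were the NOTCH ligands, receptors and targets, the 15 largest rises and falls with a mean of at least 20, the 6 most abundant called genes, up to 3 members per list with the smallest p, the 4 called genes with the smallest interaction p and genes the study names, to which called members of lists and clusters were added after their values were seen. Some genes are not reported here.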

Additional observations from a re-analysis of the deposited data

How the results depend on the processing

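Every 1 of the 62 risers and 140 fallers kept its sign under the 16 other settings in which it was tested. The number called depended on the pairing and the variance prior. With no replicate block 1 gene was higher and 0 lower in IkWT (2 and 0 in IkNull), and with eBayes without trend 2 and 0 (9 and 1 in IkNull). With no filter the counts were 27 and 54 (17 and 5 in IkNull), as 21579 genes were then tested. edgeR on recovered reads called 104 higher and 218 lower, sharing 58 and 130 genes with limma, and DESeq2 called 55 and 110, sharing 48 and 101. With a random block 107 genes were higher in IkNull. Leaving out an IkWT culture gave 21 to 55 higher and 67 to 114 lower genes in IkWT, and 0 to 2 genes in the interaction, which called 7 with a pseudocount of 5 and 1 with libraries scaled to the same total. Fallers made up 56% to 76.1% of the calls without a culture, against 69.3% with all.

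Of 2195 values of 138 named genes under these settings, 1988 kept their call or lack of it, 172 lost a call, 27 gained one and 8 changed sign, all of the last far from the threshold. With edgeR these were Jag2 (0.051) and Uty (-0.023). With a culture left out the values ranged from -0.87 to 0.053 for Jag2, from -0.11 to 0.30 for Hey2, from -0.26 to 0.053 for Zfp446, from -0.12 to 0.15 for Ccnd1 and from -1.26 to 0.045 for Xist. The causes of these moves were not tested. Genes under about 20 normalized counts rest on few reads, and their fold changes depend on the pseudocount.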
